A study of Mus musculus with 4 samples.

Results

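The kinesin motor genes were taken as every row of the deposited gene table whose name was Kif with a number and at most a letter from A to C, or was Kifc1, Kifc2 or Kifc3, which gave 37 rows of 30854 in all. They were divided by known role into 12 mitotic kinesins, 17 transport kinesins and 8 others. RNA was measured on 4 bead arrays in LSK cells, which are bone marrow cells sorted for lack of lineage markers and for surface Sca-1 and Kit, a gate that holds blood stem cells and early progenitors. The knockout group (replicates 1 and 3) carried a floxed B-myb gene, now named Mybl2, and the Mx-Cre transgene, and the control group (replicates 1 and 2) was labelled only as control, with no alleles given. Both groups were C57BL6/J mice of 12 to 16 weeks that received pIpC 1 week before harvest, and each array held a pool of 3 to 5 mice. Mx-Cre is driven by an interferon-responsive promoter that pIpC switches on, and it is not restricted to blood cells. The comparison asks how loss of B-Myb, a cell cycle transcription factor, bears on the transcripts of these motors in stem and early progenitor cells.

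Kinesins are motor proteins that use ATP to walk along microtubules or to take their ends apart. Mitotic kinesins push spindle poles apart, move chromosomes and build the central spindle on which a cell divides, and their transcripts are known to accumulate in dividing cells as they approach mitosis. Transport kinesins carry vesicles, organelles and ciliary cargo in cells at any stage. B-Myb is known to join the MuvB core complex, whose Lin54 subunit binds the CHR element (cell cycle genes homology region) in promoters of genes that peak late in the cell cycle, mitotic kinesin genes among them.

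Detection was read from the p-value deposited for each row, and a row under 0.05 is called above background. How that p-value was computed and combined over probes is not given, and some rows with high signal did not pass it. The term thus stands for the deposited p-value and not for the level of the signal. Of the 37 kinesin rows, 15 and 12 were above background on knockout replicates 1 and 3, against 20 and 20 on control replicates 1 and 2. The same count over all rows was 10761 and 8797 in the knockouts, against 12297 and 13439 in the controls, so fewer rows of the whole table were detected on the knockout arrays. The mitotic kinesins were not fewer, with 8 and 8 above background in the knockouts, against 8 and 7 in the controls. 8 kinesins were above background on all 4 arrays, 8 on 3, 1 on 2, 9 on 1 and 11 on no array. The 17 kinesins with at least 2 arrays above background (45.9% of the kinesin rows, against 39.4% of all rows) entered the comparison of genotypes. They were 7 mitotic and 10 transport kinesins and none of the 8 others.

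**Figure D1:**
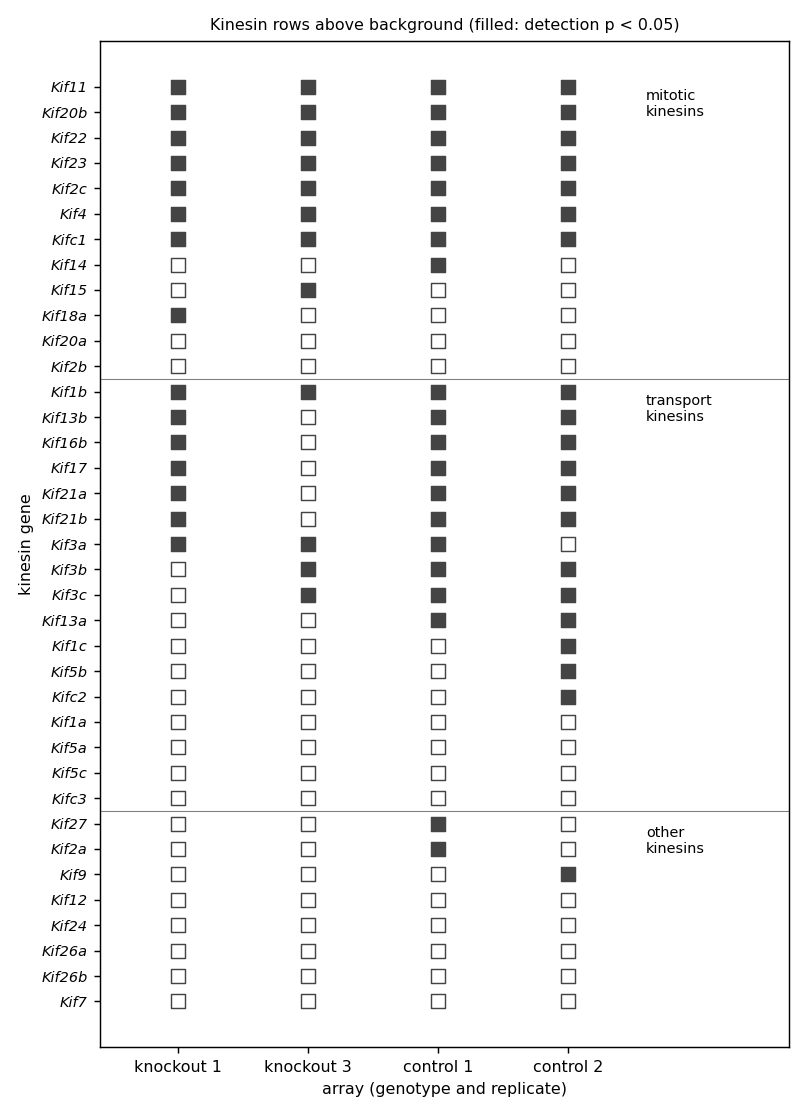
Each row is a kinesin gene and each column an array, and a filled square marks a detection p under 0.05. The 7 mitotic kinesins at the top are filled on all 4 arrays, while of the transport kinesins only Kif1b is.

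The classes differed in how they were detected. All 7 tested mitotic kinesins were above background on each array, and of the 10 tested transport kinesins 1 was. The other 5 mitotic rows were not tested. Kif14, a cytokinesis motor, was above background only on control replicate 1, Kif18a, which damps chromosome oscillation, only on knockout replicate 1, and Kif20a, a central spindle motor, and Kif2b, a microtubule depolymerase, on no array. Kif15, a spindle motor that works beside Kif11, had a detection p under 0.05 only on knockout replicate 3, although its deposited signal was 230.7 and 194.9 in the knockouts, against 274.5 and 126.2 in the controls, above the 95th percentile of the negative control beads on each array. Its normalized log2 signal was 7.58 and 7.50 in the knockouts, against 7.08 and 5.76 in the controls, and a fit without the detection filter gave a change of 1.12 ± 0.50 (SE, adjusted p = 0.540). For Kif18a the normalized log2 signal was 5.01 and 4.37 in the knockouts, against 5.55 and 4.72 in the controls. Among the transport rows, Kif1c, Kif5b and Kifc2 were above background only on control replicate 2, and Kif1a, Kif5a, Kif5c and Kifc3 on no array. Kif5b is a widely expressed heavy chain of conventional kinesin. Its deposited signal was 95.8 and 101.5 on knockout replicates 1 and 3, against 91.5 and 84.0 on control replicates 1 and 2. The median of the negative control beads was 94.4 and 99.9 on the same knockout arrays, against 86.7 and 80.7 on the control arrays. After normalization the log2 signal of Kif5b was 4.32 and 4.32 in the knockouts, against 4.40 and 4.38 in the controls. Of the other class, Kif2a, a depolymerase used at spindle poles and in neurons, and Kif27 were above background only on control replicate 1 and Kif9 only on control replicate 2. Kif7, a regulator of Hedgehog signalling at the cilium, Kif24, a centriole protein, Kif12, Kif26a and Kif26b were above background on no array. As for Kif15, the deposited signal of Kif2a exceeded the 95th percentile of the negative control beads on 4 arrays, that of Kif18a on 3 and that of Kif24 on 2. The normalized log2 signal of Kif2a was 5.70 and 5.36 in the knockouts, against 5.54 and 5.71 in the controls. The tubulin Tubb5, at 12.48 and 12.50 in the knockouts, was above background on neither of those arrays. A row not above background by its detection p is thus not always at the level of the negative control beads. Since the place of the probes in each transcript is not known, the kinesin rows not tested do not show that the gene is silent.

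Start-site windows of the 7 tested mitotic kinesins are shown because the CHR element that recruits MuvB can be read in them. The sequences are RefSeq windows of the mouse build GRCm38.p6, 150 bases before to 30 after the start given in that table, written along the gene, with matches to TTTGAA or TTTAAA (the CHR letters) and to CCAAT in capitals, on either strand, so that TTCAAA and ATTGG mark matches on the opposite strand. They lie at chr19:37376232-37376411 on the plus strand for Kif11, chr19:34922208-34922387 on the plus strand for Kif20b, chr7:127042391-127042570 on the minus strand for Kif22, chr9:61946770-61946949 on the minus strand for Kif23, chr4:117178743-117178922 on the minus strand for Kif2c, chrX:100625915-100626094 on the plus strand for Kif4 and chr17:33890604-33890783 on the minus strand for Kifc1.
Kif11: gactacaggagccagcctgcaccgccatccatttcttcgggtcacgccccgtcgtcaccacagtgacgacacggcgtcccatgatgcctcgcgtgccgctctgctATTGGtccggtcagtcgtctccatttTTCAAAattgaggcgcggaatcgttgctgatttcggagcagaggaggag
Kif20b: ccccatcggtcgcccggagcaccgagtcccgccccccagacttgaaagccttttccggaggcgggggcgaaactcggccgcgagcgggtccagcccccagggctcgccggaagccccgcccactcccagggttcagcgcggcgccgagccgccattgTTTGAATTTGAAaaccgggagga
Kif22: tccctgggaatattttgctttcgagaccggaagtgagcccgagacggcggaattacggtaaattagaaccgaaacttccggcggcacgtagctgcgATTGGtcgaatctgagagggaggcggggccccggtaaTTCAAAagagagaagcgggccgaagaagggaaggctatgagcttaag
Kif23: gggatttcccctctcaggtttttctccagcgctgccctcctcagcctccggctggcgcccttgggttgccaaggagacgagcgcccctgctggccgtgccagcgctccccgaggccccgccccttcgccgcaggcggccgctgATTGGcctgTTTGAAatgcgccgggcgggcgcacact
Kif2c: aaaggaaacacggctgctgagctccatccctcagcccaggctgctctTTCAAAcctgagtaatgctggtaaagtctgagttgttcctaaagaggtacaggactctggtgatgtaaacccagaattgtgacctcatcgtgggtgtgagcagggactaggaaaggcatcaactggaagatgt
Kif4: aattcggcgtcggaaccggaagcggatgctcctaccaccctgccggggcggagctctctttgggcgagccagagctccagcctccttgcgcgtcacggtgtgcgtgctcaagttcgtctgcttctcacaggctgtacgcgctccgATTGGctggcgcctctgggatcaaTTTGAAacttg
Kifc1: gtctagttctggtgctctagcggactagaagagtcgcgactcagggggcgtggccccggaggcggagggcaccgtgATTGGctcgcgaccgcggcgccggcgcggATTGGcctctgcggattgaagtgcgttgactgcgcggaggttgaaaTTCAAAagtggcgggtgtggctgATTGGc

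In these windows TTTGAA began within 20 bases of the start in 6 of the 7 genes, at −19 in Kif11, at 8 and 14 in Kif20b, at −17 in Kif22, at 3 in Kif23, at 20 in Kif4 and at 2 in Kifc1, counted to the leftmost base with the first transcribed base as 1. In Kif2c the nearest was at −103, but the start of its window lies 3852 bases inside the gene as RefSeq gives it, at an internal start, where the other 6 starts lie within 47 bases of the end of their gene. The Kif2c window is thus not that of its outermost start, and the letters at that start were not read. The full RefSeq windows run from 250 bases before the start to 50 after it and were found for 30 of the 37 kinesins, as 34 windows. TTTGAA was present in 9 of 11 windows of mitotic kinesins, tested or not, in 1 of 13 of transport kinesins and in 17.9% of all 32851 windows of this length. Within 20 bases of the start it was present in 7 of 11 mitotic windows, in 0 of 13 transport windows and in 2.17% of all windows. Kif15, which was not tested, had it at −19, and Kif26b, of the other class and above background on no array, at −9. TTTAAA was in 2 of 11 mitotic windows, in 0 of 13 transport windows and in 13.2% of all windows. CCAAT, read by the factor NF-Y, was in 7 of 11 mitotic windows, in 4 of 13 transport windows and in 37.4% of all windows. The Myb core AACNG was in 9 of 11 mitotic windows, in 12 of 13 transport windows and in 80.3% of all windows. A match is a description of the letters in the window and shows no binding.

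No kinesin passed the test between genotypes. Of the 17 tested, 0 passed an adjusted p of 0.05 in limma, where 0 of 11538 genes passed (0.0%), and 0 had an unadjusted p under 0.05, which 15.3% of all genes had. The lowest adjusted p among kinesins was 0.372, for Kif13a. The 7 mitotic kinesins had a median change of 0.07 on the log2 scale, with 4 higher and 3 lower in the knockout mean (46.4% and 53.6% of all genes) and a range from −0.34 to 0.32. The 10 transport kinesins had a median of −0.11, with 2 higher and 8 lower and a range from −0.58 to 0.19. The median of all genes tested was −0.04. Standard errors ran from 0.22 to 0.45 for mitotic and from 0.19 to 0.36 for transport kinesins. In these bulk samples fewer cells of a type and less RNA per cell cannot be told apart.

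**Figure D2:**
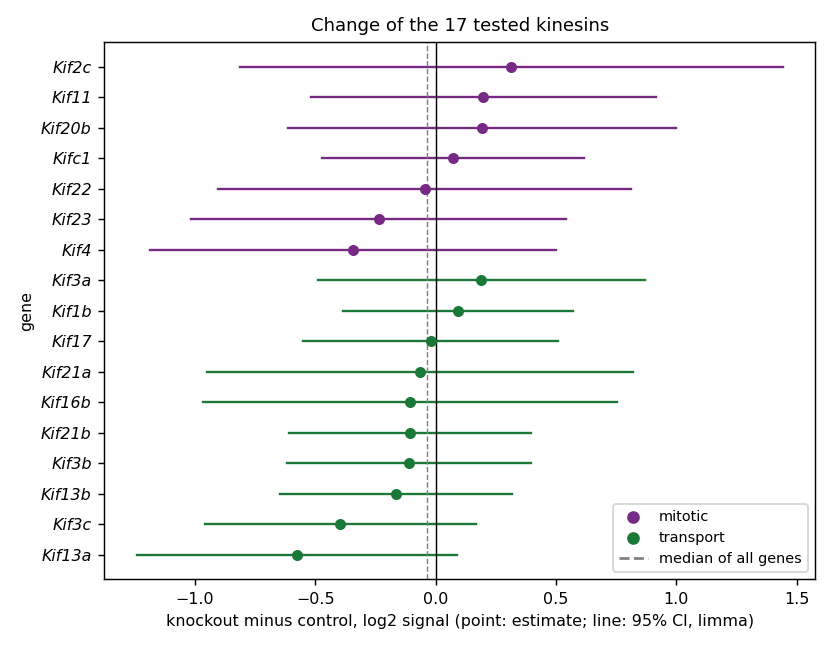
Points give knockout minus control in normalized log2 signal for the 17 tested kinesins and lines the 95% confidence interval of the limma fit, with the dashed line at the median of all genes (−0.04). Every interval crosses 0, and the widest belongs to Kif2c, from −0.81 to 1.44.

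Among motors that act on the spindle itself, Kif11 (also called Eg5), which slides antiparallel microtubules to separate the poles, had a normalized log2 signal of 8.11 and 8.06 on knockout replicates 1 and 3, against 8.25 and 7.52 on control replicates 1 and 2. Both knockout arrays lay between the control arrays, and the change was 0.20 ± 0.29 (SE, adjusted p = 0.766). Kif2c (MCAK), which takes microtubule ends apart at kinetochores, was at 7.61 and 7.71 in the knockouts, against 8.04 and 6.65 in the controls. The knockouts again lay inside the controls, which were 1.39 apart, and the change was 0.32 ± 0.45 (adjusted p = 0.763). Kifc1 (HSET), a minus-end motor that focuses spindle poles, was at 6.84 and 6.72 in the knockouts, against 6.88 and 6.54 in the controls. Its change was 0.07 ± 0.22 (adjusted p = 0.898), and the row is uncertain because a near copy, Kifc5b, may share its probe.

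Of the chromokinesins, which bind chromosome arms, Kif22 (Kid) was at 9.49 and 9.57 in the knockouts, against 10.06 and 9.09 in the controls. The groups overlapped, with a change of −0.05 ± 0.35 (adjusted p = 0.959). Kif4, which also brings the bundling protein Prc1 to the tips of central spindle microtubules, was at 6.24 and 6.36 in the knockouts, against 7.11 and 6.17 in the controls. It was the lowest mitotic kinesin by change, at −0.34 ± 0.34 (adjusted p = 0.651), and that difference rests on control replicate 1, since without that array the change was 0.13.

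Of the motors of cell division proper, Kif20b (MPP1), which works in abscission, was at 7.32 and 7.32 in the knockouts, against 7.57 and 6.68 in the controls, a change of 0.19 ± 0.33 (adjusted p = 0.800). Kif23 (MKLP1), the motor of the centralspindlin complex, was at 7.58 and 8.09 in the knockouts, against 7.73 and 8.41 in the controls, a change of −0.24 ± 0.31 (adjusted p = 0.740). Kif23 was the exception among the 7 genes: after normalization it was higher on control replicate 2 than on control replicate 1, by 0.68. The deposited signals of these arrays were close, at 414.2 and 398.8. Kif23 was also the only one in which a knockout array lay below both controls. In a second row of this gene, outside the naming rule, both knockout arrays lay above both controls.

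**Figure D3:**
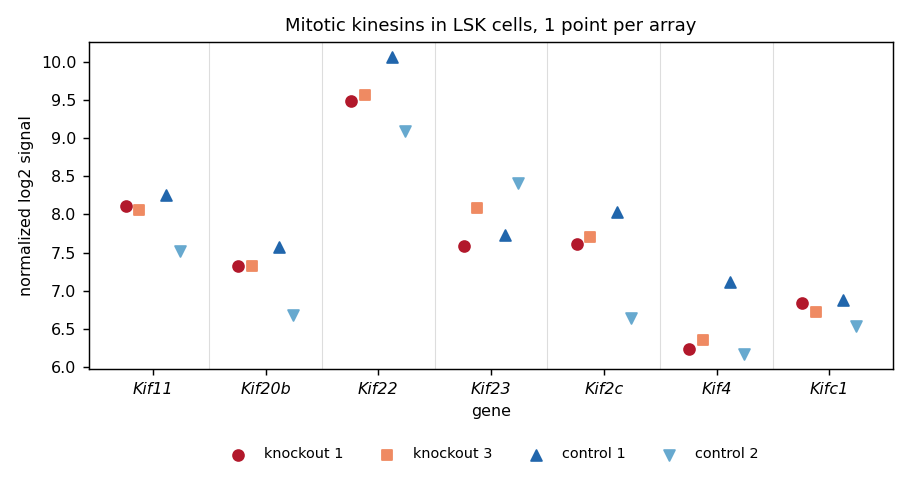
Normalized log2 signal of the 7 tested mitotic kinesins, with 1 point per array, knockout arrays to the left of the control arrays in each column. In 6 genes control replicate 1 is the highest array and control replicate 2 the lowest, with both knockout arrays between them, and Kif23 is the exception.

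In each of the 7 mitotic kinesins the control arrays differed by more than the genotype means did. In 6 of 7 both knockout values lay between the control values, which was so for 11.0% of all genes tested and for 1 of 10 transport kinesins. The difference of control replicate 1 over control replicate 2 had a median of 0.89 over the 7 genes, against 0.05 over all genes, while knockout replicate 1 over knockout replicate 3 had a median of −0.08, against 0.04 over all genes. Set against each gene's control mean, the 7 genes had medians of 0.13 and 0.01 on knockout replicates 1 and 3, against 0.44 on control replicate 1 and −0.44 on control replicate 2. Control replicate 1 exceeded control replicate 2 in 6 of 7 under each of the normalizations tried and in the signals as deposited. The share over all genes was 56.0% in the main setting, 49.99% with cyclic loess, 74.7% with median scaling and 87.1% in the deposited signals. In the last of these, 6 of 7 is thus no more than the background by count. By size, the median difference there was 1.00 over the 7 genes, against 0.27 over all genes. With median scaling it was 1.26, against 0.32. The position of the knockouts between the controls did depend on normalization. It held in 6 of 7 without background correction, in 5 of 7 with cyclic loess, in 2 of 7 in the deposited signals and in 0 of 7 with median scaling. Over all genes it held, in the same order, in 11.0%, 15.3%, 18.8% and 4.44%. Among transport kinesins it held in 1, 1, 4 and 0 of 10. In the deposited signals it was thus more frequent in transport kinesins (40.0%) than in mitotic kinesins (28.6%). Under median scaling the median of all genes was −0.70 and that of the mitotic kinesins −0.86.

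In Kif2c and Kif22 the gap between the controls was larger than the bead error of either array. The deposited signal of Kif2c was 234.1 and 212.1 on knockout replicates 1 and 3, against 471.9 and 177.6 on control replicates 1 and 2, with a bead standard error of 5.46% and 4.95% of the signal in the knockouts, against 5.75% and 3.95% in the controls. For Kif22 the deposited signal was 691.7 and 570.7 in the knockouts, against 1669 and 612.3 in the controls. In Kif23 it was not, with deposited signals of 398.8 and 414.2 on control replicates 1 and 2 and bead standard errors of 7.72% and 6.23%. Over the 7 genes the bead standard error was at most 8.04% of the signal. The bead error covers the reading of a single array and not the spread between pools of mice.

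Leaving out an array of the control group moved the mitotic kinesins in opposite directions. Without control replicate 1 their median change was 0.44, with 6 higher and 1 lower, and without control replicate 2 it was −0.25, with 1 higher and 6 lower. Without control replicate 1 Kif2c was at 1.01 and Kif22 at 0.44, and without control replicate 2 at −0.38 and −0.53. No kinesin passed the adjusted threshold under any of these settings.

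Genes that work beside the mitotic kinesins were read on the same arrays. Of 25 listed mitotic partners, 17 were tested, and 16 of the 17 were higher on control replicate 1 than on control replicate 2, by a median of 0.64, where 56.0% of all genes were higher. Both knockout arrays lay between the controls in 6 of the 17 partners (35.3%), and the difference of this share from that of the kinesins was not tested. In the comparison of genotypes 9 were higher and 8 lower, with a median of 0.01, 0 past the adjusted threshold and 3 with an unadjusted p under 0.05, all lower (15.3% of all genes had such a p). Those were Prc1, Nusap1 and Ckap5. Prc1, the bundling partner of Kif4, was at 8.19 and 8.27 in the knockouts, against 9.66 and 8.63 in the controls (change −0.92 ± 0.36, adjusted p = 0.315). Its detection p was 0.170 on knockout replicate 1. Nusap1, a spindle protein, was at 6.32 and 5.95 in the knockouts, against 7.59 and 6.58 in the controls (adjusted p = 0.314). Its detection p was 0.067 and 0.104 in the knockouts. The lowest log2 signal of a tested gene above background was 4.38 and 4.41 on these arrays. The Prc1 and Nusap1 rows that missed the detection threshold were thus not at the lowest signals. Ckap5, a microtubule polymerase, had a change of −0.60 ± 0.20 (adjusted p = 0.281). Cenpe, a kinetochore kinesin that falls outside the naming rule, was above background on no array. Mybl2 itself was at 6.72 and 6.62 in the knockouts, against 7.19 and 6.52 in the controls (change −0.18 ± 0.28, adjusted p = 0.776), the same order of arrays within the controls, and since the place of its probes is unknown the value does not check the deletion.

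**Figure D4:**
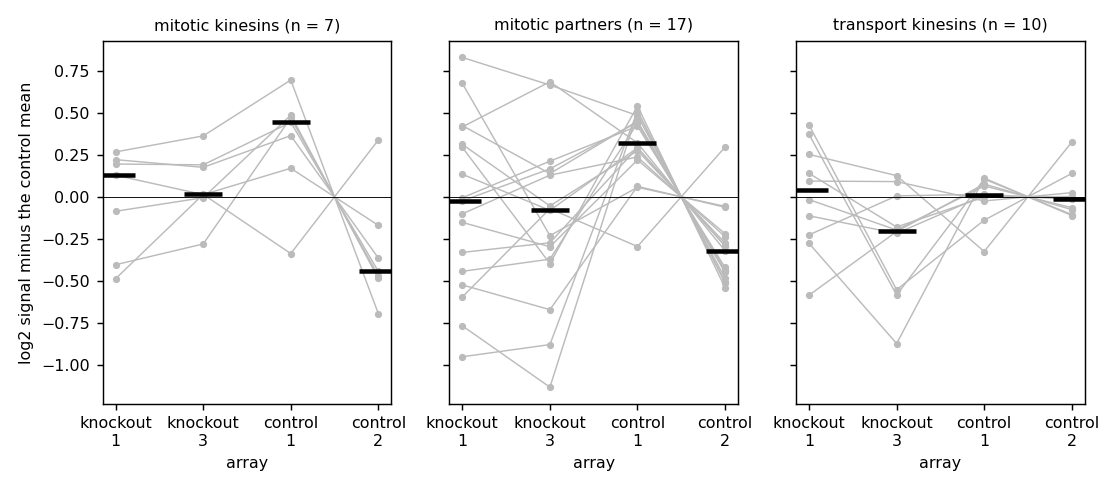
Log2 signal minus the gene's control mean on each array, with a grey line per gene and a black bar at the median, for 7 mitotic kinesins, 17 mitotic partners and 10 transport kinesins. The medians of the first 2 panels are highest on control replicate 1 (0.44 and 0.32) and lowest on control replicate 2, and those of transport kinesins on the controls are 0.01 and −0.01.

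Transport kinesins lay nearer to background than the tested mitotic kinesins by arrays detected. Their median difference of control replicate 1 over control replicate 2 was 0.02 (0.14 by size, against 0.25 over all genes), and that of knockout replicate 1 over knockout replicate 3 was 0.15. Knockout replicate 3 had the fewest rows detected of the 4 arrays, and 4 of the 17 transport rows were above background there, against 7 on knockout replicate 1, 10 on control replicate 1 and 12 on control replicate 2. Set against each gene's control mean, the 10 tested genes had medians of 0.04 and −0.20 on knockout replicates 1 and 3.

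The kinesin-2 family builds cilia and carries membrane cargo. Kif3a, its common subunit, was at 6.63 and 6.51 in the knockouts, against 6.06 and 6.71 in the controls, a change of 0.19 ± 0.27 (adjusted p = 0.765). Its partner Kif3b was at 4.94 and 5.17 in the knockouts, against 5.18 and 5.15 in the controls, a change of −0.11 ± 0.20. In both genes the genotypes overlapped. Kif3c, the alternative partner, was at 5.20 and 5.58 in the knockouts, against 5.86 and 5.71 in the controls, a change of −0.40 ± 0.23 (adjusted p = 0.443) with no overlap, and of −0.21 without knockout replicate 1. Kif17, a relative that works as a homodimer, was at 5.41 and 5.09 in the knockouts, against 5.27 and 5.27 in the controls. Kifap3, the accessory subunit of the Kif3 motor and not a kinesin by name, was at 6.02 and 5.76 in the knockouts, against 6.11 and 5.71 in the controls (change −0.02 ± 0.24, adjusted p = 0.971).

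The kinesin-3 family carries vesicles, endosomes and mitochondria. Kif13a, which moves recycling endosomes, was at 4.87 and 4.27 in the knockouts, against 5.26 and 5.03 in the controls. Both knockout arrays lay below both controls and neither was above background. The fitted change was −0.58 ± 0.27 (95% interval −1.24 to 0.09, adjusted p = 0.372). The size depended on the setting, at −0.28 without knockout replicate 3, −0.87 without knockout replicate 1 and −0.19 without background correction. Kif13b was at 4.97 and 4.87 in the knockouts, against 5.10 and 5.08 in the controls, a change of −0.17 ± 0.19, also with no overlap. Kif1b, the only transport kinesin above background on all arrays and a carrier of mitochondria and synaptic vesicle precursors, was at 5.16 and 5.16 in the knockouts, against 5.04 and 5.09 in the controls. That was a change of 0.09 ± 0.19 (adjusted p = 0.845), higher with no overlap. Kif16b, a motor of early endosomes, was at 5.41 and 4.46 in the knockouts, against 5.15 and 4.94 in the controls, so that the knockout arrays lay on either side of the controls.

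Kif21a and Kif21b, best known from neurons, completed the class. Kif21a was at 5.25 and 4.27 in the knockouts, against 4.68 and 4.96 in the controls, and Kif21b at 4.48 and 4.30, against 4.56 and 4.43. In Kif16b and Kif21a the change turned positive without knockout replicate 3, to 0.37 and 0.43. Over the 17 tested kinesins the genotypes did not overlap in 4, all transport kinesins (1 higher and 3 lower), against 50.1% of all genes (22.0% higher and 28.1% lower). The class medians are not a comparison of expression levels between genes, since each row has its own probes.

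**Figure D5:**
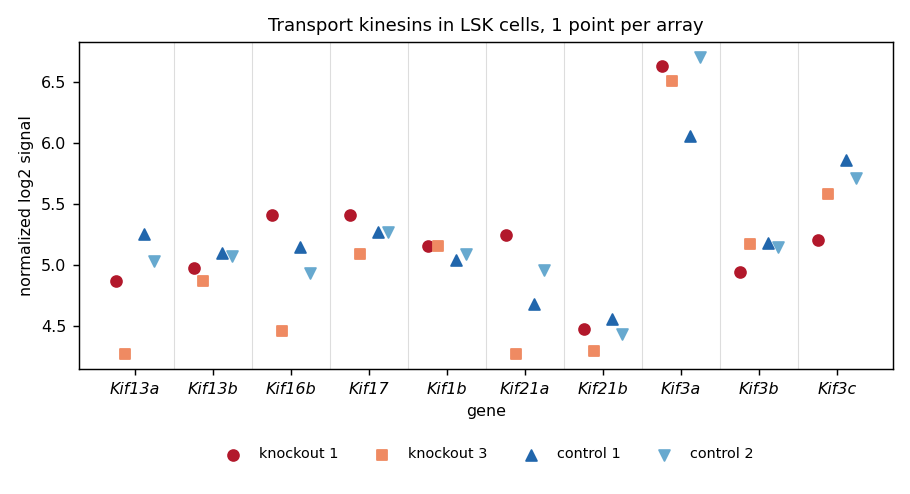
Normalized log2 signal of the 10 tested transport kinesins, with 1 point per array, knockout arrays to the left of the control arrays in each column. Knockout replicate 3 is the lowest array in 6 of the 10 genes, and the control arrays lie farthest apart in Kif3a.

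The partners of transport kinesins and of microtubules at large gave 0 genes past the adjusted threshold. Of 17 listed kinesin light chains and adaptors 13 were tested, 4 higher and 9 lower, with a median of −0.25 and 2 with an unadjusted p under 0.05, both lower, a share near the 15.3% of all genes. Arl8a, which links kinesins to lysosomes, was at 7.41 and 7.12 in the knockouts, against 8.38 and 7.99 in the controls (change −0.92 ± 0.24, adjusted p = 0.245). Klc1, a light chain of conventional kinesin, was at 4.68 and 4.60 in the knockouts, against 5.15 and 5.41 in the controls (change −0.64 ± 0.21, adjusted p = 0.276). Fez2, an adaptor, was at −0.56 ± 0.23 (adjusted p = 0.327). In these 3 genes both knockout arrays lay below both controls, which was so for 28.1% of all genes tested. They were named for the lowest p-values of their list, which favours such a separation. For dynein and dynactin, the motor that walks the other way, 23 of 28 were tested, 9 higher and 14 lower, with a median of −0.13 and 0 with an unadjusted p under 0.05. Their lowest p-values belonged to Dctn1 (−0.54 ± 0.22), the cargo adaptor Hook3 (−0.50 ± 0.21) and Spdl1, which brings dynein to kinetochores (0.78 ± 0.33). The dynein heavy chain Dync1h1 was at 0.21 ± 0.23. Of 14 tubulins 10 were tested, 7 higher and 3 lower with a median of 0.12. Control replicate 1 exceeded control replicate 2 in 9 of 10 tubulins (median difference 0.35), with both knockout arrays between the controls in 4. The same order held in 17 of 23 dynein and dynactin genes (0.15) and 8 of 13 light chains and adaptors (0.09), against 56.0% of all genes. That order of the controls was thus not particular to mitotic genes. Tubb1, the platelet tubulin, was at 4.44 and 4.31 in the knockouts, neither above background, against 5.40 and 5.14 in the controls (adjusted p = 0.237), and Tubb6 at 0.88 ± 0.35 (adjusted p = 0.320), while Tubg1, of the centrosome, was at 0.52 ± 0.26.

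Markers of the gate and of other blood cells were read beside these results. Ly6a (Sca-1) and Cd34 were above background on all arrays and Kit on 3 of the 4, with Kit at 9.044 and 9.005 in the knockouts, against 9.73 and 10.03 in the controls (change −0.86 ± 0.21, adjusted p = 0.237). Neutrophil markers divided the arrays of each genotype: the summed linear signal of 8 genes was 16181 and 1045 on knockout replicates 1 and 3, against 1519 and 4489 on control replicates 1 and 2. Of these genes 7 and 4 were above background in the knockouts, against 7 and 7 in the controls. Among the neutrophil markers 0 of the 7 tested were higher on control replicate 1 than on control replicate 2, where 6 of 7 mitotic kinesins were. Megakaryocyte markers summed to 2124 and 1725 in the knockouts, against 2645 and 3602 in the controls (median change −1.24 over 9 genes). Selp, singled out after its values were seen, was at 10.30 and 9.87 in the knockouts, against 7.47 and 9.65 in the controls, and without it the other 8 genes, all lower in the knockouts, summed to 863.0 and 789.8, against 2467 and 2797. Granulocyte-monocyte progenitor markers summed to 15332 and 21966, against 9738 and 8850 (median 1.39 over 7). Erythroid markers summed to 2477 and 7527 in the knockouts, against 4288 and 3607 in the controls. Without the globin genes Hba-a1 and Hbb-b1 the other 6 summed to 639.3 and 662.3 in the knockouts, against 2033 and 1685 in the controls, and Car1, an erythroid carbonic anhydrase, was at 8.02 and 7.72, against 10.46 and 10.01 (change −2.36, adjusted p = 0.114). B cell markers summed to 921 and 415, against 1454 and 786, mast cell and basophil markers to 346 and 345, against 615 and 620, and T and NK cell markers to 169 and 144, against 141 and 150. In each of these marker lists 0 genes passed the adjusted threshold. By detection, the knockouts had 8 and 6 of 9 megakaryocyte markers above background, against 9 and 9 in the controls, and 7 of 7 granulocyte-monocyte progenitor markers were above background on each array. The part of these cells in the kinesin values was not tested.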

How the data were processed

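Total RNA of LSK cells was amplified to biotinylated cRNA and read on Illumina bead arrays, per the labels' protocols. The deposited gene table holds linear intensity, a single number per gene name, without background subtraction or normalization, and with it the bead standard error and bead number as a signal column and a detection p-value, per the file headers. The array type, the software and the way probes were combined are not given in the sources used here. A value table deposited separately by the authors holds intensity under probe identifiers, with column medians of 94.2, 94.2, 94.1 and 94.2, and was not used for kinesins, its identifiers being unpaired with gene names.

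The table held 30854 gene rows and 936 negative control probes. Signals were background-corrected with neqc of limma 3.58.1 in R 4.3.3 (normexp on the negative controls, offset 16), quantile-normalized and taken to log2. Names were updated through RefSeq (GRCm38.p6). Genes with a detection p under 0.05 on at least 2 of 4 arrays were kept, with the row of highest mean per gene, which left 11538. Knockout minus control was fitted with lmFit and eBayes with no covariate and adjusted by Benjamini-Hochberg over all genes, two-sided, with 3.72 prior degrees of freedom. The number of arrays limits the precision. The script was tested on simulated data.

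The kinesins, the gene lists and the promoter motifs were chosen with earlier results of these data known. Mitotic kinesins, transport kinesins with an unadjusted p under 0.1 or a log2 change of at least 0.5, and the 3 genes with the lowest p per list (besides Cenpe, Klc1, Kifap3, Dync1h1, Mybl2, Kit and Ly6a) were named by rule, and other tested kinesins by their values. Lists were described and not tested as sets. Each sample is its own pool of mice, per the labels, so p-values rest on the spread between pools. In eBayes that spread is drawn for each gene toward the spread over all genes. The p-values thus do not measure the pool spread of a single gene alone. Where the pools of a gene lay close, as for Kif1b and Kif13b, its standard error (0.19) was larger than its own pools would give. Alternatives were other background and normalization settings, detection filters, eBayes options and each array left out.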

Additional observations from a re-analysis of the deposited data

How the results depend on the processing

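No kinesin passed the adjusted threshold of limma under any setting tried, with the lowest adjusted p at 0.0556 for Kif3c under median scaling. Of 178 values for single kinesins under the alternatives, 155 kept their sign and 23 turned. Of those that turned, 6 did so under median scaling, so that 17 of 161 turned without it. Median scaling did not move the kinesins alike. Kif11 went from 0.20 to −0.74 and Kif21b from −0.11 to −0.14. With cyclic loess 3 genes of the whole table passed, the transport median was 0.028, and Kif16b was at 0.13, Kif17 at 0.079 and Kif21a at 0.12. With median scaling 940 genes passed, the mitotic median was −0.86 and the transport median −0.64 where all genes had −0.70, and Kif11 was at −0.74, Kif20b at −0.81, Kif2c at −0.68, Kifc1 at −0.91, Kif1b at −0.48 and Kif3a at −0.73. With genes detected on all 4 arrays 17 passed and the transport median, of Kif1b alone, was 0.092, as it was when only members were so restricted. Trend and robust eBayes gave 15 genes. The cause of these differences was not tested.

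Among transport kinesins that kept their sign, Kif13a ran from −0.87 to −0.28 and Kif3c from −0.59 to −0.21 with an array left out. Leaving out each array in turn gave transport medians from −0.20 to 0.038, and changes from −0.17 to 0.56 for Kif11, from −0.25 to 0.64 for Kif20b, from −0.53 to 0.44 for Kif22, from −0.57 to 0.10 for Kif23, from −0.38 to 1.01 for Kif2c, from −0.81 to 0.13 for Kif4 and from −0.10 to 0.24 for Kifc1. The transport kinesins that changed sign ran from −0.58 to 0.37 for Kif16b, from −0.18 to 0.14 for Kif17, from −0.55 to 0.43 for Kif21a, from −0.14 to 0.52 for Kif3a and from −0.23 to 0.0059 for Kif3b. The count of mitotic kinesins with both knockout arrays between the controls was chosen after seeing the data. No paired analysis was possible because the genotypes share only replicate number 1. With 2 pools per genotype, and transport kinesins close to background, small differences were not detectable.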

Other observations

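Kinesin rows under older names fell outside the naming rule. Kif18b, a motor that shortens microtubules, had a normalized log2 signal of 6.36 and 7.02 on knockout replicates 1 and 3, against 7.16 and 6.41 on control replicates 1 and 2, a change of −0.09 ± 0.35 (SE). A second row of Kif23 was at 6.60 and 6.86 in the knockouts, against 6.35 and 6.42 in the controls, a difference of 0.34, while the tested Kif23 row was at −0.24, so that the rows of this gene disagree in sign. Second rows of Kif11, Kif15 and Kif26b, and the rows of Kif6 and of the pseudogene Kifc5c-ps, were above background on no array.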
